A study of Mus musculus with 32 samples.

Results

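The nuclear-encoded subunits of the mitochondrial respiratory chain and of ATP synthase were followed in MCG 101, a transplantable mouse sarcoma, and in the stroma around it. Genes were taken by symbol, as those beginning with Ndufa, Ndufb, Ndufc, Ndufs or Ndufv and a number, Sdha to Sdhd, and those beginning with Uqcr, Cox4 to Cox8, or Atp5 and a letter, which gave 83 genes of the 45616 gene names on the array. They comprised 37 genes of complex I, 4 of complex II, 8 of complex III, 17 of complex IV and 17 of complex V, the ATP synthase. Complexes were assigned by symbol alone, so all Nduf genes, Ndufa4 and Ndufa4l2 among them, counted as complex I whichever complex their protein joins. The 32 one-colour Agilent arrays formed 4 groups of 8, which were stroma from EP2 knockout (EP2-/-) hosts, stroma from wild-type (EP2+/+) hosts, tumor from EP2 knockout hosts and tumor from wild-type hosts, each with 4 arrays labelled female and 4 labelled male. EP2 is a receptor for prostaglandin E2 and is encoded by Ptger2. All mice carried MCG 101 cells, so the genotype is that of the host, and the tumor arrays mix implanted cells with host cells. The labels give no age, do not say how the stroma was separated from the tumor, and do not say that a replicate number stands for 1 animal, so p-values measure the spread between these samples.

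Complexes I to IV pass electrons from NADH and succinate to oxygen. Complexes I, III and IV pump protons across the inner mitochondrial membrane, and complex V uses the returning protons to make ATP. Complex I is built around a catalytic core that includes flavin and iron-sulfur subunits, encoded by some of the Ndufv and Ndufs genes. Its many accessory subunits are mostly encoded by Ndufa and Ndufb genes. The core of complex IV is encoded in mitochondrial DNA, which was not analysed here. Several small subunits of complex IV exist as a form found in most tissues and a form found in heart and skeletal muscle. Cox6a2, Cox7a1 and Cox8b are the muscle forms, and Cox6a1, Cox7a2 and Cox8a are the widely expressed forms. Cox7a1 and Cox8b are also expressed in brown fat.

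A level is the log2 probe signal minus the log2 of the 75th percentile of the same array, so that 0 is the 75th percentile. That percentile lay between 402.2 and 1133 signal units, 47.7% to 75.1% of probes stood well above background, and saturated spots numbered 0. Ptger2 was not lower under the knockout label, with a median level of -3.20 in knockout stroma and -4.26 in wild-type stroma, and of -3.72 in knockout tumor and -4.81 in wild-type tumor. The sources used here do not say whether its probe lies within the deletion, so it checks nothing about the genotype, and groups are named by their labels. The level of Ddx3y, a Y-linked gene, went against the male label in 3 stroma arrays (knockout 95, knockout 99 and wild-type 9) and in 2 tumor arrays (knockout 95 and knockout 99). A set of 17 skeletal muscle genes (Acta1, Ckm, Mylpf, Atp2a1, Myh4 and others, mostly of fast fibres) averaged 7.48 ± 0.70 in knockout stroma, 5.80 ± 2.78 in wild-type stroma, 1.22 ± 3.14 in knockout tumor and -0.46 ± 2.68 in wild-type tumor (SD, n = 8 each). Wild-type stroma 65 and 82, at 2.49 and 0.91, had marker levels like those of tumors, and wild-type stroma 9 had the highest, 8.95.

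Of the 83 genes, 81 could be tested. Cox7b2 and Cox8c, germ-cell forms of complex IV subunits, were too dim, with medians of -6.38 and -6.79 in stroma and -6.80 and -6.91 in tumor. Single arrays stood higher, with Cox7b2 at -0.02 on knockout tumor 15 and -1.71 on wild-type tumor 5, and Cox8c at -2.86 on wild-type tumor 5. In stroma against tumor, 57 of the 81 were higher and 4 were lower by limma at an adjusted p under 0.05, where 25.7% of all 27096 genes tested were higher and 37.1% lower (62.8% in either direction, and 65.9% at an unadjusted p under 0.05). The median difference over the 81 genes was 0.54 on the log2 scale, against -0.14 over all genes. In bulk tissue, fewer cells of a type and less RNA per cell cannot be told apart.

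**Figure D1:**
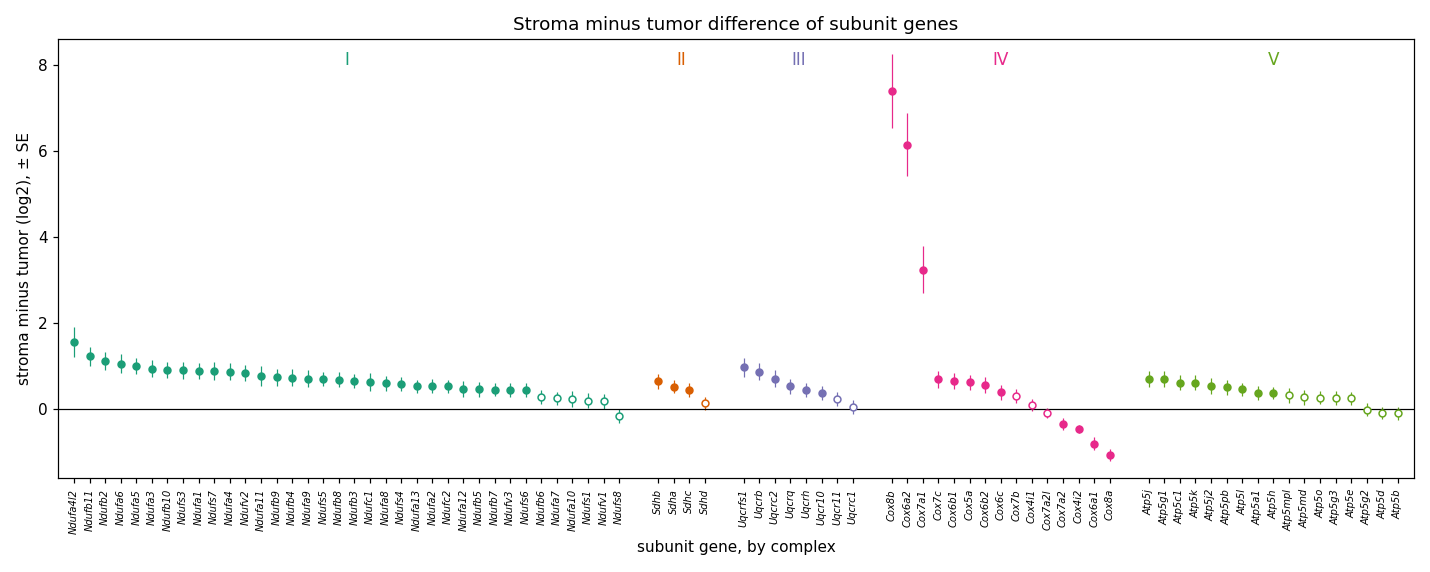
Stroma minus tumor difference in level (log2, with its standard error) for 80 of the 81 tested subunit genes, arranged by complex I to V and by size within a complex. Filled points passed an adjusted p of 0.05 and open points did not. Cox8b, Cox6a2 and Cox7a1 lie far above the rest, and the 4 genes that were lower in stroma are all in complex IV.

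The muscle isoforms of complex IV differed most. Cox6a2 was between 7.64 and 9.08 in knockout stroma (median 8.35) and between 1.81 and 9.52 in wild-type stroma (median 7.62), against -2.57 to 6.67 in knockout tumor (median 2.16) and -2.54 to 5.19 in wild-type tumor (median 0.41). In all, 13 of 16 stroma arrays lay above the highest tumor array, and the stroma arrays 65 and 82 of wild-type hosts were the lowest. The stroma minus tumor difference was 6.14 ± 0.73 (SE, n = 16 against 16, limma adjusted p = 1.4e-07).

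Cox8b showed the same order of groups. It lay between 6.17 and 8.52 in knockout stroma (median 7.30) and between -0.86 and 8.88 in wild-type stroma (median 5.79), against -6.51 to 5.24 in knockout tumor (median -0.03) and -6.83 to 2.88 in wild-type tumor (median -2.21). On 4 tumor arrays its signal was not well above background. Here 12 of 16 stroma arrays exceeded every tumor array, and the difference was 7.39 ± 0.87 (adjusted p = 1.2e-07).

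Cox7a1 overlapped more. Its level ran from 3.63 to 7.64 in knockout stroma (median 5.53) and 0.80 to 8.44 in wild-type stroma (median 4.39), against 0.42 to 4.95 in knockout tumor (median 1.38) and 0.51 to 1.80 in wild-type tumor (median 0.92). In all, 9 of 16 stroma arrays exceeded the highest tumor array. The difference was 3.24 ± 0.55 (adjusted p = 1.45e-05). Of the tumors, wild-type 1, knockout 15 and knockout 81 had the highest muscle markers, at 4.55, 5.83 and 4.57, and without these tumors and wild-type stroma 65 and 82, an alternative chosen after seeing the data, 57 subunit genes were higher and 4 lower (64.2% of all genes were called).

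The widely expressed partners ran the other way. Cox8a ran from 5.97 to 7.18 in knockout stroma (median 6.37) and 6.14 to 7.76 in wild-type stroma (median 7.21), against 7.65 to 8.23 in knockout tumor (median 7.78) and 7.46 to 8.39 in wild-type tumor (median 7.78). Every stroma array lay below the tumor median. The difference was -1.06 ± 0.15 (SE, log2, adjusted p = 8.86e-07). Cox6a1 was likewise below the tumor median in every stroma array, with a range of 6.62 to 8.21 over all stroma arrays against 7.98 to 8.77 over all tumor arrays, and a difference of -0.79 ± 0.14 (adjusted p = 2.96e-05). Of the 3 partners Cox7a2 differed least, by -0.34 ± 0.14 (adjusted p = 0.0416), and 3 of 16 stroma arrays lay above its tumor median. That call ended without wild-type stroma 65 and 82 (adjusted p = 0.0661) and with the percentile taken over bright probes (adjusted p = 0.0944), and its adjusted p ran from 0.00852 to 0.687 over the alternatives.

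**Figure D2:**
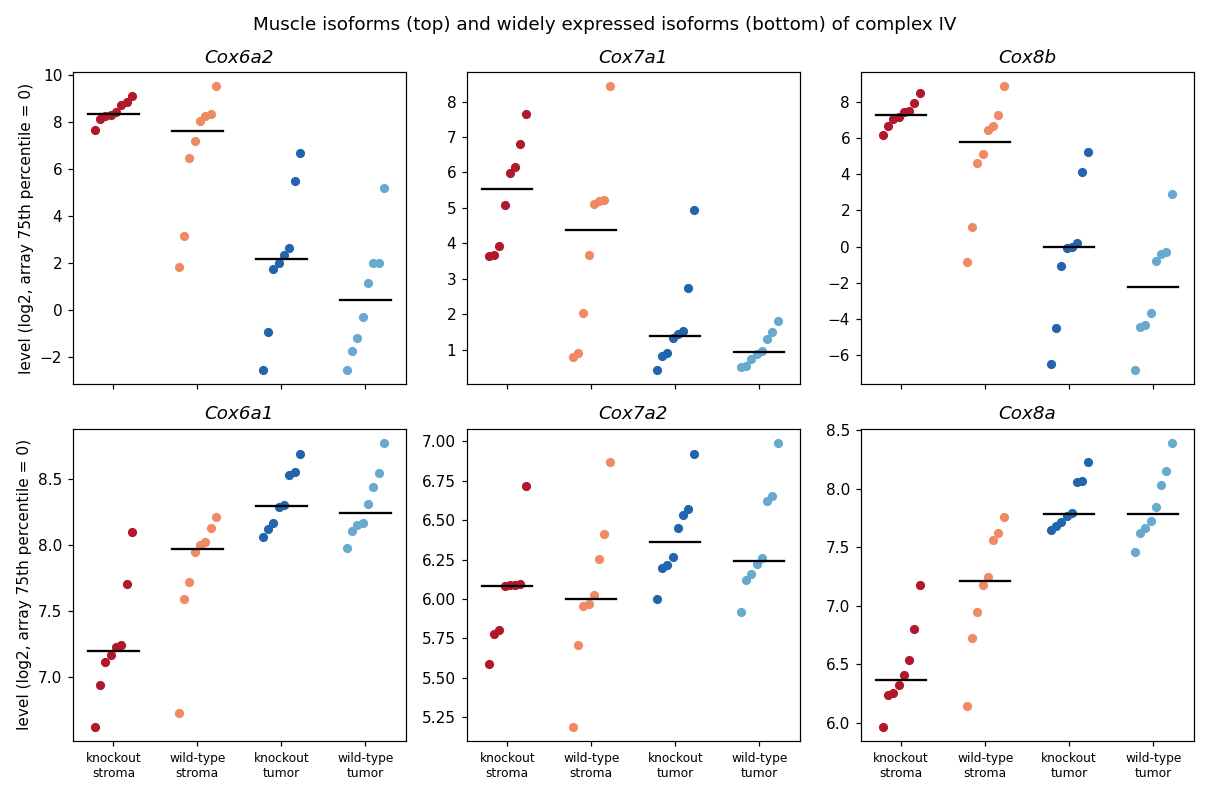
Level of the muscle isoform genes Cox6a2, Cox7a1 and Cox8b (top row) and of their widely expressed partners Cox6a1, Cox7a2 and Cox8a (bottom row) on each of the 32 arrays, as log2 signal with the 75th percentile of the array at 0. Each point is an array and each line the median of 8 arrays. The top genes were higher in stroma and the bottom genes lower, with overlap in every panel.

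Within an array, the log ratio of a tissue-restricted form to its partner removes any scaling of the array, since both probes share it. The Cox6a2 to Cox6a1 ratio was 6.94 ± 0.95 (SE) higher in stroma than in tumor, the Cox7a1 to Cox7a2 ratio 3.59 ± 0.57 higher and the Cox8b to Cox8a ratio 8.45 ± 1.18 higher. The size of the last rests in part on the 4 tumor arrays where Cox8b was not well above background. Each had a two-sided permutation p of 1e-05 (100000 resamples, the smallest they can give), or 2e-05 after adjustment over 6 pairs. In all 3 pairs, 16 of 16 stroma arrays lay above the tumor median. Cox4i2, the form of subunit 4 best known from lung, fell against Cox4i1 by 0.55 ± 0.11 (adjusted permutation p = 6e-05), and 1 of 16 stroma arrays lay above the tumor median. The ratios Ndufa4l2 to Ndufa4 (0.68 ± 0.42, adjusted permutation p = 0.143) and Cox6b2 to Cox6b1 (-0.10 ± 0.27, adjusted permutation p = 0.731) did not pass.

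The sequences before the start of 2 of the muscle forms and 2 of the widely expressed forms are shown because these genes moved in opposite directions. Each run is the 250 bases before the start of the gene in RefSeq's GRCm38.p6 table, written 5′ to 3′ on the strand of the gene, with matches on either strand to the E-box (CANNTG, bound by myogenic factors such as MyoD), the ETS core (CCGGAA) and the NRF1 motif in capitals.
Cox8b, chr7:140900447-140900696, minus strand: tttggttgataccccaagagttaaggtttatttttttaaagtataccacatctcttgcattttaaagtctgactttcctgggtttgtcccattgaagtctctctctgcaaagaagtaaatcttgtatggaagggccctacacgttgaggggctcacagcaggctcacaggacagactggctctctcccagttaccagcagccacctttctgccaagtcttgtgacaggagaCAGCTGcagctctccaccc
Cox7a1, chr7:30183921-30184170, plus strand: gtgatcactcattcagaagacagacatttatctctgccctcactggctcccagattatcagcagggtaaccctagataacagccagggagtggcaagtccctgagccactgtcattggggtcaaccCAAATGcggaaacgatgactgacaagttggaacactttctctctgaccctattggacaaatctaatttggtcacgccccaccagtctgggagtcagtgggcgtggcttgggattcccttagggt
Cox8a, chr19:7217617-7217866, minus strand: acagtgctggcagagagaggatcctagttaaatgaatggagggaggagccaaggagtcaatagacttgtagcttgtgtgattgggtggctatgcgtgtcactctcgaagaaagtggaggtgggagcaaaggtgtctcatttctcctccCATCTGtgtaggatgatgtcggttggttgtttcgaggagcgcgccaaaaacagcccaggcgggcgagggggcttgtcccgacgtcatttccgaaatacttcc
Cox6a1, chr5:115348959-115349208, minus strand: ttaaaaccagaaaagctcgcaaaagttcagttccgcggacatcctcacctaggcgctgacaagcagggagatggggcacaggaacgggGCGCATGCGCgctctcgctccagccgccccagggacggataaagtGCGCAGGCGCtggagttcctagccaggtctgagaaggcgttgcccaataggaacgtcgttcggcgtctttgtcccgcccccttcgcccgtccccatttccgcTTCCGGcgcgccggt

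Of the 83 genes, 67 had an entry in the promoter table. An E-box lay in 61.2% of their windows and in 66% of the 27025 windows of all genes. The ETS core lay in 28.4% against 12.2%, the NRF1 motif in 17.9% against 3.86%, the ERR core (AAGGTCA) in 7.46% against 4.05%, and the MCAT motif (GGAATG, which can share letters with the ETS core) in 10.4% against 12.6%. The MEF2 motif was found in 0 of the 67 and in 3.01% of all windows, and the CArG box in 0 of the 67 and in 1.4%. These are matches of letters in a window of this length and say nothing of binding.

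In complex I, 31 of 37 genes were called higher in stroma and none lower, where 25.7% and 37.1% of all genes were. Differences between complexes were not tested. The median difference was 0.69. Ndufa4l2, a hypoxia-inducible relative of Ndufa4, ran from 1.83 to 3.71 in knockout stroma (median 1.96) and 0.94 to 4.09 in wild-type stroma (median 1.61), against -0.60 to 1.47 in knockout tumor (median 0.36) and -0.46 to 4.16 in wild-type tumor (median 0.06). It differed by 1.56 ± 0.35 (adjusted p = 0.000375), yet no stroma array exceeded the highest tumor array, wild-type tumor 9 at 4.16.

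The Ndufa and Ndufb genes, mostly of accessory subunits, followed. Of 14 Ndufa genes 12 were called, and of 10 Ndufb genes 9 were, all of them higher in stroma (25.7% of all genes). Ndufb11, encoded on the X chromosome, ran from 6.51 to 7.89 in knockout stroma (median 7.03) and 5.39 to 8.46 in wild-type stroma (median 6.43), against 5.27 to 5.97 in knockout tumor (median 5.59) and 5.13 to 6.16 in wild-type tumor (median 5.41). Of 16 stroma arrays, 12 lay above every tumor array, and the difference was 1.23 ± 0.21 (adjusted p = 1.79e-05). Ndufb2 (1.12 ± 0.22) and Ndufa6 (1.06 ± 0.21) were also higher. Of the catalytic core, Ndufs3 (0.91 ± 0.19), Ndufs7 (0.90 ± 0.21) and Ndufv2 (0.85 ± 0.18) were called, whereas Ndufs1 (0.20 ± 0.18, adjusted p = 0.332), Ndufv1, which binds the flavin (0.19 ± 0.17, adjusted p = 0.341), and Ndufs8 (-0.15 ± 0.16, adjusted p = 0.437) were not. A dimmer Ndufv1 probe, well above background on all 32 arrays, had a difference of means of 0.45 and was not tested alone.

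In complex II, which is also succinate dehydrogenase of the citric acid cycle, 3 of 4 subunits were higher in stroma (25.7% of all genes). Sdhb, the iron-sulfur subunit, differed by 0.65 ± 0.18, Sdha, the flavoprotein, by 0.53 ± 0.14, and the membrane anchor Sdhc by 0.45 ± 0.15. Dimmer probes of Sdhb and Sdha, well above background on all 32 arrays, had differences of means of 1.21 and 0.99 and were not tested alone. The other anchor Sdhd differed by 0.14 ± 0.15 and did not pass (adjusted p = 0.433). In complex III, 6 of 8 were called, all higher (25.7% of all genes), and the median was 0.49. The Rieske iron-sulfur protein Uqcrfs1 differed by 0.98 ± 0.22 (adjusted p = 0.000317), the ubiquinone-binding subunit Uqcrb by 0.87 ± 0.20 and the core protein Uqcrc2 by 0.72 ± 0.19, against 0.05 ± 0.17 for the other core protein Uqcrc1 (adjusted p = 0.793).

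Complex IV held both extremes, with 8 of 15 tested genes higher and 4 lower (25.7% and 37.1% of all genes). The fourth lower gene beside Cox8a, Cox6a1 and Cox7a2 was Cox4i2, at -0.45 ± 0.10 (adjusted p = 0.000184). Outside the isoform pairs, Cox7c (0.70 ± 0.20) and Cox5a (0.63 ± 0.17) were higher. Cox4i1, the widely expressed subunit 4, differed by 0.10 ± 0.14 (adjusted p = 0.531), and Cox7a2l, which helps to join complexes III and IV into supercomplexes, by -0.08 ± 0.12 (adjusted p = 0.569).

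In complex V, 9 of 17 genes were higher and none lower (25.7% and 37.1% of all genes, 62.8% in either direction), with a median of 0.38. In its catalytic head, the gamma subunit Atp5c1 (0.62 ± 0.18) and the alpha subunit Atp5a1 (0.39 ± 0.16, adjusted p = 0.0413) were called. The beta subunit Atp5b (-0.09 ± 0.15, adjusted p = 0.642), the delta subunit Atp5d (-0.08 ± 0.14) and the epsilon subunit Atp5e (0.26 ± 0.15, adjusted p = 0.143) were not. The proton-carrying c-ring subunit is made from 3 genes, of which Atp5g1 was higher (0.70 ± 0.19), while Atp5g3 (0.26 ± 0.15) and Atp5g2 (-0.00 ± 0.15) did not pass. Atp5j, coupling factor 6 in the stalk, differed by 0.71 ± 0.19. The signs of Atp5b, Atp5g2, Atp5d and Cox7a2l turned under another scaling of the arrays, and that of Atp5b also with all its probes averaged.

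The stroma arrays did not move as 1 block. Of 50 subunit genes outside the isoform pairs that were higher in stroma, all 50 lay above every tumor array on knockout stroma 59B, knockout stroma 81 and wild-type stroma 9. The same count was 17 to 45 on the other 6 knockout stroma arrays, 38 to 43 on wild-type stroma 1, 5 and 45, 1 on wild-type stroma 4, and 0 on wild-type stroma 65, 68 and 82. These last 4 arrays had mean levels of 5.51 to 5.73 over the 69 tested genes outside the pairs. They sat within the tumor range of 5.40 to 6.30, as did knockout stroma 51, 12 and 49 at 6.01, 6.16 and 6.23. Wild-type stroma 4 did so with a muscle marker mean of 6.90, and knockout stroma 51 had one of 7.24.

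The arrays came from 6 slides, and each slide held both tissues. The median stroma minus tumor difference over the subunit genes was -0.25 on slide 1 and -0.25 on slide 2, against 0.71, 1.15, 0.86 and 0.65 on slides 3 to 6. The stroma arrays of slide 1 were wild-type 4 and 68, and those of slide 2 were wild-type 65 and knockout 51. Cox6a2 and Cox8b were higher, and Cox6a1 and Cox8a lower, on all 6 slides, Cox7a1 was higher on 5 (-0.05 on slide 2) and Cox7a2 lower on 5 (0.11 on slide 4). With slide as a block, 52 subunit genes were higher and 4 lower, where 61.8% of all genes were called in either direction.

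Within stroma, the subunit genes tracked the skeletal muscle markers. In a fit with genotype and sex, 54 of 81 genes had a positive slope on the mean of the 17 markers and 2 a negative slope (adjusted p under 0.05), where 20.3% and 18.3% of all 24772 genes did (38.6% in either direction). The slope, in log2 units per log2 unit of the marker mean, was 1.12 ± 0.06 for Cox8b, 0.92 ± 0.04 for Cox6a2 and 0.94 ± 0.13 for Cox7a1, and its median was 0.20 over all 81 genes. The 2 negative slopes belonged to Cox8a (-0.19 ± 0.05, adjusted p = 0.0116) and Cox6a1 (-0.17 ± 0.06, adjusted p = 0.0261).

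Of single arrays left out, wild-type stroma 9 lowered those counts most and wild-type stroma 4 raised them most. Wild-type stroma 9 is the array with the highest markers and also goes against its sex label. Without it, 6 genes had a called slope, all positive (12.4% of all genes were positive), namely Cox6a2 (0.85 ± 0.05), Cox8b (0.97 ± 0.07), Cox7a1 (0.70 ± 0.16), Cox6b2, Ndufa3 and Ndufa6, and the median slope over the 81 genes was 0.07. Without wild-type stroma 65 and 82 instead, 69 genes were called, all positive (23.5% of all genes were called in either direction). With slide as a block 30 were called, all positive (26.6% of all genes). Without wild-type stroma 4, 78 were called, 76 of them positive and 2 negative (50% of all genes), and the median slope was 0.27.

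Within the 16 tumor arrays, whose marker means ran from -3.85 to 5.83, the slope of 2 of 81 genes was called, where 1.24% of all genes were (1.15% positive and 0.0885% negative). They were Cox8b (1.14 ± 0.08) and Cox6a2 (0.99 ± 0.05). The median slope was -0.03. The mean of 8 slow fibre markers gave 0 called slopes within stroma by limma (0.0283% of all genes; 1 of 81 at an unadjusted p under 0.05, against 5.14% of all genes).

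**Figure D3:**
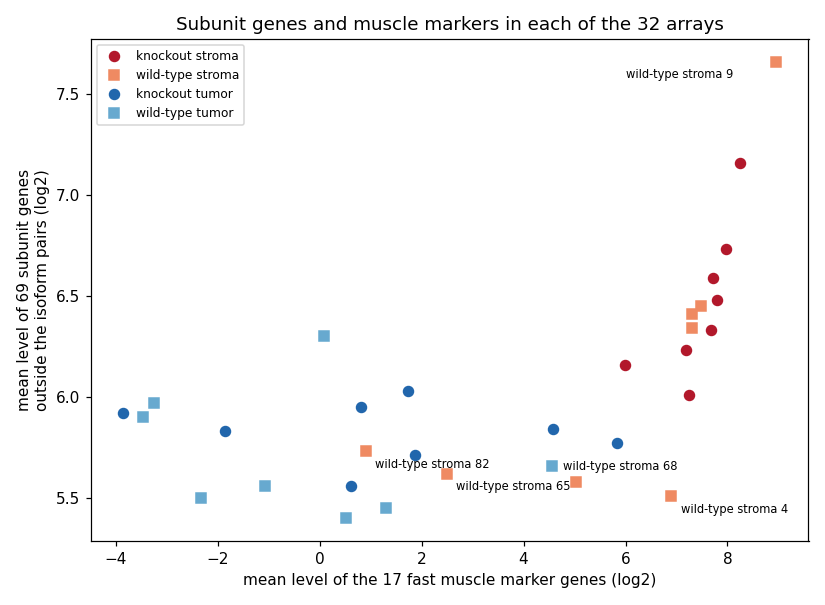
Mean level of the 69 tested subunit genes outside the isoform pairs (vertical, log2) against the mean level of the 17 skeletal muscle markers (horizontal, log2) on each of the 32 arrays. Tumor arrays lie between 5.40 and 6.30 over the whole range of markers, and wild-type stroma 9 is highest on both axes at 8.95 and 7.66.

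With the muscle marker mean as a covariate in the stroma against tumor fit, 0 of 81 subunit genes were called by limma, and 0 of all 27096 genes, with 0 of 81 and 13.2% at an unadjusted p under 0.05. The median difference over the subunit genes was then 0.11 and its median standard error 0.32. Ndufb11 differed by 0.42 ± 0.37 in that fit (adjusted p = 0.606) and Cox6a2 by 0.12 ± 0.26 (adjusted p = 0.853). The marker mean nearly separates the tissues, so its part and that of the tissue cannot be told apart well in this fit.

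Markers of other cells moved with the tissue too, where 25.7% of all genes were higher in stroma and 37.1% lower. All 15 cell cycle genes were lower in stroma (median -2.63), 11 of 12 white fat genes were higher (median 4.86), all 12 smooth muscle genes (median 2.0) and all 9 endothelial genes (median 1.42) were higher, and their part in the subunit differences was not tested. Of 6 brown fat genes tested, 4 were higher and 2 lower in stroma (median 1.03), and the untested Ucp1, the defining gene of brown fat, was well above background on 2 knockout stroma arrays, 0 wild-type stroma arrays and 0 tumor arrays.

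Over all 32 arrays, the subunit genes, the only ones ranked for this, whose level followed that of Cox6a2 most closely were Cox8b (Pearson r = 0.99), Cox7a1 (0.86), Ndufa3 (0.80), Ndufb11 (0.78) and Ndufa4 (0.77), a description over arrays of both tissues. Within a group the genes outside the isoform pairs moved together. Deviations were taken from the mean of each group and sex label. On these, the median correlation between 2 of the 69 genes was 0.95 over 16 stroma arrays and 0.82 over 16 tumor arrays. With the other genes it was 0.01 and 0.03. All share the scaling of their array. The median standard deviation of the same deviations was 0.61 in stroma and 0.28 in tumor, and 64 of the 69 genes varied more in stroma. Wild-type stroma 9, with a mean of 7.66 over the 69 genes, was included.

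In knockout against wild-type stroma, 0 of 81 subunit genes passed by limma, as did 0% of all 24772 genes. At an unadjusted p under 0.05 there were 3 of 81, where 28.2% of all genes were. That count depended on the scaling. It was 20 of 81 with quantile scaling (29.5% of all genes) and 24 of 81 with normexp and quantile scaling (30.2%). With the percentile taken over bright probes it was 6 of 81 (29.3%). In the main fit the median difference was 0.30 (0.08 over all genes), and 73 of 81 were positive. Cox8b differed by 2.40 ± 1.04 (adjusted p = 0.156), Cox6a2 by 1.82 ± 0.85 (adjusted p = 0.176) and Cox8a by -0.68 ± 0.25 (adjusted p = 0.125). The 8 knockout arrays of Cox6a2, 7.64 to 9.08, lay inside the range of the 8 wild-type arrays, 1.81 to 9.52.

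The Cox8b to Cox8a ratio was 3.09 ± 1.33 higher in knockout than in wild-type stroma (exact permutation p = 0.0242) and the Cox6a2 to Cox6a1 ratio 2.35 ± 1.11 higher (exact permutation p = 0.0421), and both had an adjusted p of 0.126 over the 6 pairs. In 8 of 8 and 7 of 8 knockout arrays the ratio lay above the wild-type median.

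Of the 16 stroma arrays left out in turn, only wild-type stroma 9 changed the count of 0 subunit genes. Without wild-type stroma 4 the count stayed at 0 of 81, where 21% of all genes were called. Without wild-type stroma 9, 41 subunit genes were higher in knockout stroma and 2 were lower, where 15.7% and 18.2% of all genes were. The median was 0.56. Cox8b then differed by 3.29 ± 0.71 (adjusted p = 0.00717), Ndufb11 by 0.95 ± 0.23 (adjusted p = 0.00939) and Cox8a by -0.83 ± 0.22 (adjusted p = 0.0137). By complex, 22 of 37 genes of complex I, 2 of 4 of complex II, 4 of 8 of complex III, 8 of 15 of complex IV and 5 of 17 of complex V were higher. Without wild-type stroma 65 and 82, by contrast, 0 were called, as were 0% of all genes. The median was then 0.06, against 0.02 over all genes. At an unadjusted limma p under 0.05 there were 1 of 81 subunit genes and 7.58% of all genes.

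Of the cell type markers, 0 passed between the genotypes in stroma by limma, but several lists lay on one side. All 15 cell cycle genes were negative (median -1.56), and all 17 skeletal muscle (1.70), 12 white fat (1.70), 8 macrophage (1.08) and 9 endothelial genes (0.66) were positive. At an unadjusted p under 0.05 there were 4, 6, 0, 3 and 3 of these genes, in that order, where 28.2% of all genes were. The part of markers other than those of muscle was not tested. The mean of the muscle markers was 7.48 in knockout stroma, against 5.80 in wild-type stroma, 5.34 without wild-type stroma 9, and 7.16 without wild-type stroma 65 and 82. With the marker mean as a covariate, the median knockout minus wild type difference in stroma was -0.04, and 0 of 81 genes were called (1 of 81 unadjusted, against 11.5% of all genes). With slide as a block the median was 0.03. Within the 5 slides that held stroma of both genotypes it was 0.37, -0.01, -1.49, 0.28 and 0.50, each from 2 to 4 arrays, and -1.49 came from the slide of wild-type stroma 9. With all 32 arrays in 1 fit, 1 gene was called, Cox8a at -0.68 (adjusted p = 0.0286), where 16% of all genes were.

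**Figure D4:**
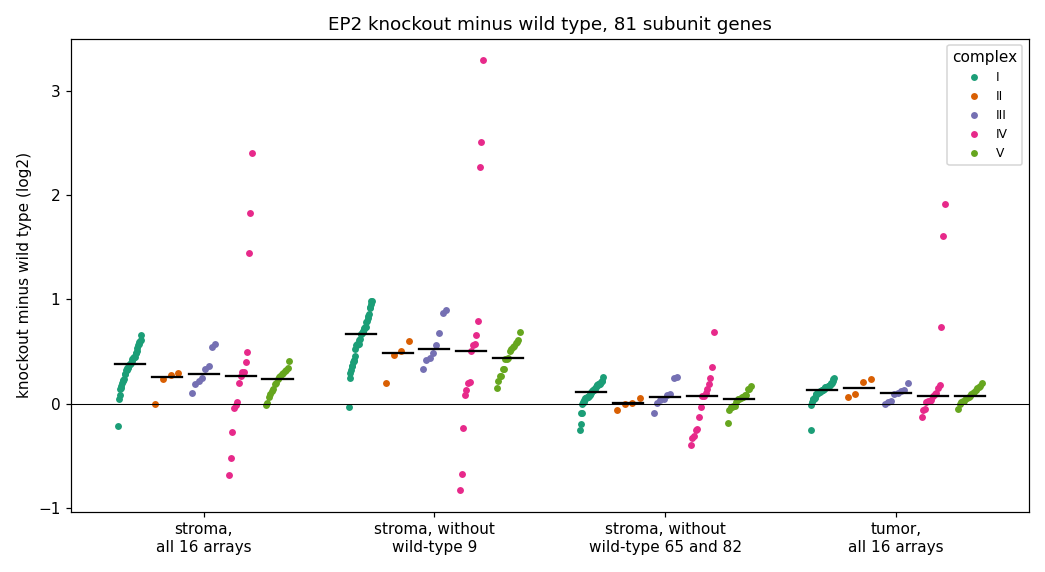
EP2 knockout minus wild type difference in level (log2) of the 81 tested subunit genes, by complex, in stroma with all 16 arrays, in stroma without wild-type stroma 9, in stroma without wild-type stroma 65 and 82, and in tumor. Each point is a gene and each line a median. The stroma medians of complex I are 0.38, 0.66 and 0.11 in these sets of arrays, and that of tumor is 0.13.

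In knockout against wild-type tumor, 0 of 81 genes passed by limma (0% of 23730 genes), with 0 of 81 and 3.32% of all genes at an unadjusted p under 0.05. The median difference was 0.11 (0.00 over all genes), and 0.21 with slide as a block. Within slides 2, 3 and 4, which held tumors of both genotypes, it was -0.47, 0.49 and 0.38, each with 1 knockout array. Over all slides it was 0.20 without wild-type tumor 45, 0.06 without wild-type tumor 68 and 0.06 without wild-type tumor 9. It was 0.07 without wild-type tumor 5 and 0.07 without knockout tumor 12. Cox8b differed by 1.91 ± 1.30, Cox6a2 by 1.60 ± 1.12 and Cox7a1 by 0.74 ± 0.46 (adjusted p = 0.977 for each). Knockout tumors 15 and 81 carried the highest Cox6a2 and muscle marker levels of their group.

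The stroma minus tumor difference was also taken within each genotype. In knockout hosts 52 genes were higher and 3 lower (26.3% and 33.1% of all genes, 59.4% in either direction), with a median of 0.65, and 59 had an unadjusted p under 0.05 (63.4% of all genes). In wild-type hosts 15 were higher and 1 lower (11.9% and 18.3%, 30.2% in either direction, a larger share than of the subunit genes), with a median of 0.46, and 37 had an unadjusted p under 0.05 (44% of all genes). The difference between genotypes was tested itself, and 0 of 81 genes passed by limma (0% of 27096 genes), with 1 of 81 and 21.1% of all genes at an unadjusted p under 0.05. The median of that difference was 0.20, and it turned to -0.31 with slide as a block and to -0.04 without wild-type stroma 65 and 82. Without wild-type stroma 9, 5 genes passed as higher and 2 as lower, where 19.6% of all genes passed.

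Other mitochondrial genes were read from lists chosen beside the subunits. Of all genes tested, 25.7% were higher in stroma and 37.1% lower, 62.8% in either direction. Of 13 fatty acid oxidation genes, 10 were higher in stroma and 1 was lower, led by Cpt1b, the muscle form of the carnitine palmitoyltransferase that admits fatty acids to mitochondria (4.32 ± 0.55), Acadl (1.70 ± 0.26), Cpt2 (1.29 ± 0.20) and Acaa2 (1.24 ± 0.22). Of 13 citric acid cycle genes, 7 were higher and 1 lower, with Sucla2, a succinyl-CoA ligase subunit, at 2.58 ± 0.34, Idh3b at 2.0 ± 0.34 and Ogdh at 1.33 ± 0.21. Of 8 genes that move ATP, ADP and phosphocreatine, 4 were higher and 1 lower. Among them Ckmt2, the creatine kinase of muscle mitochondria, differed by 6.53 ± 0.88, and the ADP/ATP carriers diverged, with the heart and muscle form Slc25a4 at 0.87 ± 0.18 and Slc25a5 at -1.10 ± 0.21.

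Regulators of mitochondrial content were split, with 10 of 22 higher and 7 lower (25.7% and 37.1% of all genes). Those named here were picked by smallest p and all were higher, while the lowest of the list was at -0.94. The coactivator Ppargc1a differed by 5.55 ± 0.75, the nuclear receptors Ppara and Esrrg by 4.72 ± 0.58 and 4.72 ± 0.62, and the muscle factor Mef2c by 3.65 ± 0.38. Of 42 assembly factors of the complexes, 12 were higher and 10 lower (25.7% and 37.1% of all genes), with Uqcc1, which serves complex III, at 1.33 ± 0.21, and Atpaf2, which serves ATP synthase, at -0.77 ± 0.11. Of 16 genes of hypoxia and glycolysis, 2 were higher and 9 lower, with Car9 at -2.94 ± 0.29, Pfkl at -2.42 ± 0.25, Slc2a1 at -1.86 ± 0.22 and Pdk1, which shuts pyruvate out of the citric acid cycle, at -1.30 ± 0.14.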

How the data were processed

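RNA of 32 samples was hybridised to one-colour Agilent arrays. Intensity values are the deposited background-subtracted, processed signals of Agilent Feature Extraction 10.7.3.1, per the file headers and the submitters' processing notes. The series' deposited matrix, with a column per array, is on a log2 scale. Its processing was worked out from the values: scanner values scaled to the 75th percentile and centred per probe on the median of their tissue lay within 0.02 of it for 99.6% of stroma and 98.9% of tumor values, with column medians from -0.31 to 0.56.

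Of 62976 spots, 59305 were not controls and gave 56605 probes, of which 32994 matched RefSeq by accession (22911 symbols). Spots of 1 probe were averaged, outlier spots left out, log2 signals set against the 75th percentile of each array, and the brightest probe used per gene. Genes well above background on 8 or more arrays of a fit, with at most 2 missing values, were tested with limma 3.58.1 in R 4.3.3 (a mean per tissue, genotype and sex, lmFit and eBayes, Benjamini-Hochberg over all genes tested), and isoform ratios by permutation. The difference by genotype was fitted within each tissue. The scripts' tests were tested on simulated data. Promoter sequences came from RefSeq, and figures from matplotlib 3.10.9.

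The genes, the lists and the tests were chosen with earlier results of these data known. The named genes were the isoform genes, Cox7b2, Cox8c, Cox7a2l and the genes of ATP synthase subunit c, core subunits of each complex, the 2 highest and 2 lowest differences per comparison and complex (not all are printed, and 1 subunit gene is counted but not reported here), up to 4 genes of each other list by smallest p, and Ptger2 and sex-linked genes as label checks. Ndufb2, Ndufb11, Ndufa6 and Cox7c in the tissue comparison were chosen after their values were seen. Of 18 subunit genes with several probes, 17 had more than 1 measured, and only the probes of Atp5b disagreed in sign. Sizes differed between probes, though by over 1 log2 unit for 0 genes. The dimmer probe gave the larger stroma minus tumor difference for Atp5a1 (0.81 against 0.39) and the smaller for Cox7c (0.67 against 0.70). The 15 replicate numbers shared by stroma and tumor were not used as pairs: the correlation of deviations ran from -0.12 to 0.36 and exceeded 0.1 for 8 of them. Alternatives were other scalings, filters, probes, blocks and sets of arrays. The number of arrays limits the precision.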

Additional observations from a re-analysis of the deposited data

Results flagged for a closer look

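Of the values compared within groups of 8, 9 had an array whose gap to its nearest neighbour was large against the range of the group (Dixon's test at 95%, applied to 56 sets of values, of which chance flags about 1 in 20). Wild-type stroma 9 was the highest of its group in the mean of complex I subunits, at 7.31 (next 6.11), complex II, at 6.73 (next 5.45), complex III, at 7.99 (next 6.71), and complex V, at 8.19 (next 7.10), and the lowest in Cox6a1, at 6.73 (next 7.59). Knockout stroma 12 was the lowest of its group in the muscle marker mean, at 5.98 (next 7.19), and the highest in Ndufa4l2, at 3.71 (next 2.30). Knockout stroma 81 had the highest Cox7a2 of its group, at 6.72 (next 6.10), and wild-type tumor 9 the highest Ndufa4l2, at 4.16 (next 1.45).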

How the results depend on the processing

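In stroma against tumor, 61 subunit genes were called, and 53 to 74 under other scalings, filters, probes, blocks and sets of arrays, except that with the muscle marker mean as a covariate 0 were. The share of all genes called was 62.8%, and 60.7% and 63.7% in the fits that gave 53 and 74. Leaving out 1 array gave 56 to 63 for stroma against tumor, 0 to 43 for knockout against wild-type stroma and 0 to 0 for tumor. It gave 0 to 7 for the genotype by tissue term and 6 to 78 for the muscle slope. Over all genes these fits called 16446 to 17269, 0 to 8323, 0 to 0, 0 to 5275 and 6236 to 12199, in that order. Wild-type stroma 9 set the 43, the 7 and the 6, and wild-type stroma 4 the 63 and the 78. Knockout against wild-type stroma gave 24 genes without arrays against their sex label and 1 with all 32 arrays in 1 fit (over all genes 0, against 5510 and 4337, and 8323 without wild-type stroma 9). The slope gave 30 of 81 with slide as a block (26.6% of all genes) and 5 without arrays against their sex label (23%). It gave 2 within tumor (1.24%) and 0 on slow fibre markers (0.0283%). The median of all genes in stroma against tumor was -0.14, and -0.02 with the percentile taken over bright probes. Signs turned for these stroma minus tumor differences, none of them called under the alternative: Atp5b was 0.14 with quantile scaling, 0.0392 with bright probes, 0.17 with normexp and 0.0505 with the mean of probes; Atp5g2 was 0.22, 0.12 and 0.21 with those scalings and 0.0141 without wild-type stroma 65 and 82; Cox7a2l was 0.0413 with bright probes and 0.0207 without these arrays; Atp5d was 0.0414 with bright probes, and Uqcrc1 was -0.0023 with slide as a block. With the muscle covariate Atp5a1 was -0.0523, Atp5e -0.16, Cox4i1 -0.0984, Ndufs1 -0.0427, Ndufv1 -0.0720, Sdhc -0.0234, Uqcr11 -0.12 and Uqcrc1 -0.30. The median over subunit genes was -0.25 within slide 1 and -0.25 within slide 2. In knockout against wild-type stroma Cox7a2 was 0.0281 with quantile scaling, 0.0690 with bright probes, 0.0152 with normexp and 0.17 without arrays against their sex label, and Cox7a1 was -0.13 with the muscle covariate and -0.0538 with it and without wild-type stroma 65 and 82. Slopes without arrays against their sex label were -0.11 for Atp5b, -0.0421 for Atp5d, -0.0648 for Cox7a2, -0.0811 for Ndufa10, -0.11 for Ndufs8, -0.0734 for Sdhd and -0.0522 for Uqcrc1. The cause of these changes was not tested. Replicate numbers shared by stroma and tumor were also fitted as a replicate block, which gave 61 genes as a random block and 53 as a fixed one, and 0 for the genotype by tissue term in both. With sign flips over the shared numbers, the Cox6a, Cox7a, Cox8 and Cox4 ratios differed by 6.89, 3.59, 8.38 and -0.55. Of 15 shared numbers, 4 had their best match in their own number.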
